A study of Mus musculus with 18 samples.

Results

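Long noncoding RNAs (lncRNAs) are transcripts that carry no long reading frame and act, where a function is known, as RNA molecules, as hosts of small RNAs or through the act of their transcription. Their genes were examined here for methylated DNA in the heart muscle of mice with myocardial infarction (MI). Joining the MeDIP-seq peaks of 18 libraries that shared 1 base or more gave 152196 regions, 148111 of them on the 19 autosomes. A region was kept when it overlapped the span of a gene of the class lncRNA and no span of a protein-coding gene. This left 11508 lncRNA regions, 7.77% of the autosomal regions, beside 74752 that touched a protein-coding gene, 58594 in no gene of the table (called intergenic) and 3257 in other genes only.

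DNA methylation in mammals sits mostly on the cytosine of CpG, a C followed by a G. Promoters dense in CpG are usually free of it, while gene bodies and the space between genes usually carry it, and in a few imprinted clusters, several of which hold lncRNA genes, it marks the copy of 1 parent. In MeDIP-seq an antibody against methylated cytosine pulls down sheared DNA, and a peak marks a place rich in such fragments. It does not give the fraction of molecules that are methylated. Several lncRNAs are known from heart muscle, such as Miat, named for its link to myocardial infarction, and Mhrt, transcribed from the myosin heavy chain locus.

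The libraries came from male C57BL/6JR mice aged 12 weeks, 3 mice in each of 6 groups. The sham mice were operated on without tying the artery and carry the time 0 h, so there was no sham group for each later time. The other 5 groups had the left anterior descending coronary artery tied and were sampled after 10 min or after 1, 6, 24 or 72 h. The labels name myocardial tissue and cardiomyocytes but no step that separates cells, and peak lists hold no marker to check the cell type, so a shift in which cells were sampled and a change within cells cannot be told apart. The lists held between 34255 and 60653 peaks and no read counts, so the depth is unknown and no counting interval can be given. The shorter and longer lists were spread over the groups, with 51287 ± 8068 peaks in sham (SD, n = 3), 42620 ± 8149 at 6 h and 56084 ± 6528 at 72 h.

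Promoter sequences are shown first because they hold what the antibody can bind. A promoter window here runs from 250 bases before to 50 bases after a gene start of RefSeq (build GRCm38.p6), 300 bases in all, and the motif CG, which reads the same on both strands, is in capitals. Of 7324 lncRNA windows outside protein-coding spans 91.8% held at least 1 CG, and so did 95.6% of 20085 protein-coding windows. Of 11311 lncRNA windows, 64 windows of 59 genes lay wholly inside a region with a peak in all 18 libraries. The 4 with the highest mean peak score, taking 1 window for each region, were those of Gm40237 (chr4:118546889-118547188, plus strand, 7 CG), 4930568E12Rik (chr9:13105806-13106105, minus strand, 15 CG), Gm10874 (chr5:138363469-138363768, plus strand, 7 CG) and Gm34032 (chr16:31578434-31578733, minus strand, 18 CG).
Gm40237: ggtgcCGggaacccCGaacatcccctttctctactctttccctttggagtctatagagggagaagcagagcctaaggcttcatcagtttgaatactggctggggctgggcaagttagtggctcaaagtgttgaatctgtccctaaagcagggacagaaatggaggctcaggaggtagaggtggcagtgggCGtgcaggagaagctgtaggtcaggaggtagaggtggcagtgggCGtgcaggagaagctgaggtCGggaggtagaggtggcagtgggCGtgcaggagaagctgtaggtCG
4930568E12Rik: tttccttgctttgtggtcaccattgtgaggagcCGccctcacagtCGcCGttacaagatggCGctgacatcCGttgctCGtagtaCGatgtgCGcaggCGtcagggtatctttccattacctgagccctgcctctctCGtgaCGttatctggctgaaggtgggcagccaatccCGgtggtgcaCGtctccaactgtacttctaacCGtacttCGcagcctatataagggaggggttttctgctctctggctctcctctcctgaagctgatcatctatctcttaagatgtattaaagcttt
Gm10874: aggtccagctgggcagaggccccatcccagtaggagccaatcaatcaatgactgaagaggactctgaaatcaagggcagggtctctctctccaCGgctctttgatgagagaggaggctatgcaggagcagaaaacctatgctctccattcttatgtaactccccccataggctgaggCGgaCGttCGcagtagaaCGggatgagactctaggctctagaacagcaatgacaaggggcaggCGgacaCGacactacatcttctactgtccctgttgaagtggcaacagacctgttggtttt
Gm34032: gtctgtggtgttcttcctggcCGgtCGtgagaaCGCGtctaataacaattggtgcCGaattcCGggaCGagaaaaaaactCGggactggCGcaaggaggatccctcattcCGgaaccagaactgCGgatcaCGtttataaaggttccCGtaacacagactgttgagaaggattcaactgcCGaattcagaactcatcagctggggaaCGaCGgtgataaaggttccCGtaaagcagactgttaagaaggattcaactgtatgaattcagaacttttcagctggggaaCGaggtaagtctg
The Gm40237 window holds an exact repeat of 43 bases in 2 copies that do not overlap, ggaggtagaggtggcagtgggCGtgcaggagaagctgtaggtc, and the Gm34032 window an exact repeat of 16 bases in 2 copies, ataaaggttccCGtaa. How reads that fit several places were handled is not given in the sources used here.

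A second set is shown because no library had a peak on it although the gene is known from heart or other tissue. Malat1, an abundant RNA of nuclear speckles, has 10 CG in its window (chr19:5802623-5802922, minus strand), and Mhrt has 1 (chr14:54968537-54968836, plus strand). Neither gene held an lncRNA region in any library. Of the 5563 bases of Mhrt only 1897 lie outside protein-coding spans, and the rest could not hold such a region by the rule.
Malat1: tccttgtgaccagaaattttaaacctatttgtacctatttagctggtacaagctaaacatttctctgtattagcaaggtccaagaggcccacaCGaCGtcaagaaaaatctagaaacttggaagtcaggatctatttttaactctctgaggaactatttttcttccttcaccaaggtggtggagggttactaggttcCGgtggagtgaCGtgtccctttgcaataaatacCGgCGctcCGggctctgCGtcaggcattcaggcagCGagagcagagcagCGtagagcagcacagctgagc
Mhrt: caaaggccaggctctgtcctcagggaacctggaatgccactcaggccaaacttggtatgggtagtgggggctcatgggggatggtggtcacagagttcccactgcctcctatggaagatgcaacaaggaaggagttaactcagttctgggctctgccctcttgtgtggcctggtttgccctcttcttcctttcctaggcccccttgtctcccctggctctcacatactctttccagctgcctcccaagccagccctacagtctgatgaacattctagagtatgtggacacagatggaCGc
A further window was chosen after its values were seen, for its place. Gm34081 (chr12:109526220-109526519, minus strand, 6 CG) lies in the imprinted cluster between Dlk1, whose end is 29.8 kb away, and the lncRNA gene Meg3, the next gene on the other side.
Gm34081: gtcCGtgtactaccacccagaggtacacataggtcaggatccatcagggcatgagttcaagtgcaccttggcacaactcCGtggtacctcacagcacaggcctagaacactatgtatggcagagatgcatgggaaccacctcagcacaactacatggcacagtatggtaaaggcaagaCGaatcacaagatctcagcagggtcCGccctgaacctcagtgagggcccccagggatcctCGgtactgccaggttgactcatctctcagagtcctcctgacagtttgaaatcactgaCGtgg
A peak covered the Gm34081 window in all 18 libraries, in a region 2693 bases wide with scores between 93.2 and 237 (median 175). Neither of the 2 Meg3 windows, with 13 and 1 CG, was touched by a peak in any library. The window of Kcnq1ot1, an imprinted lncRNA inside the protein-coding gene Kcnq1 and so outside the regions described here, was touched in 16 of 18 libraries.

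The promoter windows of lncRNA genes were touched by peaks more often than those of protein-coding genes. A peak of at least 1 library touched 1095 of the 7324 lncRNA windows (14.95%) and 1213 of the 20085 protein-coding windows (6.04%). Per library the lncRNA share was 4.67% ± 0.770 (SD, n = 18), from 3.59% to 6.29%, and the protein-coding share 1.66% ± 0.312, from 1.26% to 2.30%. The ratio of the shares lay between 2.32 and 3.16, so the ranges did not overlap. It was 2.36, 2.69 and 2.32 in the 3 libraries of 72 h, and the lowest pair of the 18 were 2 of these.

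The windows of both classes differ in sequence, and the gap changed with it. The median was 3 CG in lncRNA windows and 14 in protein-coding windows, and 2.16% of lncRNA windows against 34.8% of protein-coding windows held 21 or more. Among windows with no CG the protein-coding share per library was the higher (0.861% ± 0.187 against 0.456% ± 0.308), and the lncRNA share was higher in 1 of 18 libraries. With 6 to 10 CG the lncRNA share was 10.2% ± 2.005 and the protein-coding share 5.08% ± 1.01. With 11 to 20 CG the values were 14.4% ± 2.06 and 1.39% ± 0.281, and in both of these ranges the lncRNA share was higher in 18 of 18 libraries. With 21 or more they were 0.809% ± 0.566 and 0.242% ± 0.0769, from 158 and 6989 windows. The windows with 11 to 20 CG touched in all 18 libraries numbered 22 of 429 for lncRNA and 8 of 4244 for protein-coding genes. These values describe the windows and carry no test.

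**Figure D1:**
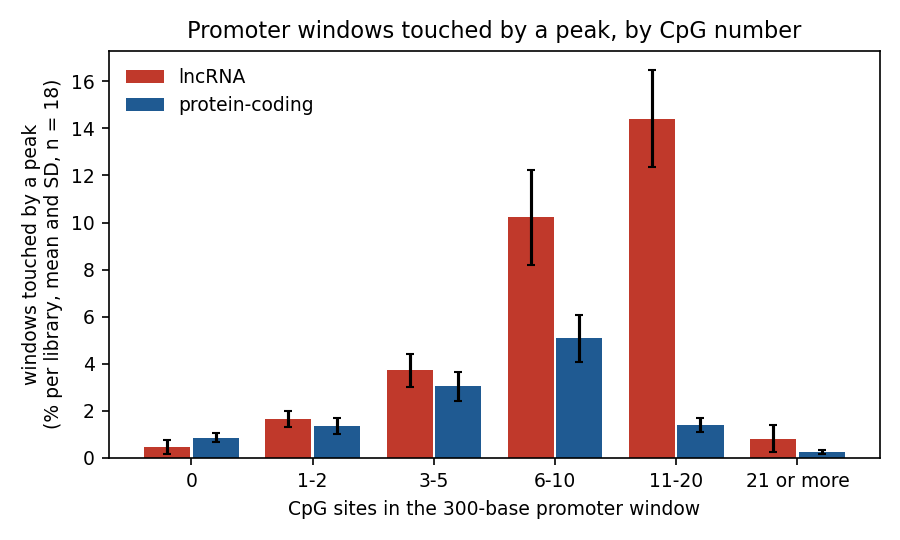
Percentage of 300-base promoter windows touched by a peak, per library, against the number of CpG sites in the window, for lncRNA windows outside protein-coding spans (red) and protein-coding windows (blue). Bars are means and error bars SDs over 18 libraries; the classes are furthest apart at 11 to 20 CpG, at 14.4% and 1.39%.

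The lncRNA regions had a median width of 1070 bases (381 to 7466) and covered 13.6 Mb. The sequence of lncRNA genes outside protein-coding spans measured 171 Mb and held 67.2 regions per Mb, against 76.0 per Mb in the 984 Mb of protein-coding spans. The density per chromosome ran from 56.9 per Mb on chromosome 7 to 85.1 per Mb on chromosome 17. A promoter window lay at 876 of the lncRNA regions (7.61%). That share was 5.38% among regions found in 1 library, 7.28% among those found in 2 to 8, 10.7% in 9 to 17 and 12.7% (62 of 490) in all 18. Wider regions touch a window more readily, and width was not held equal over these classes. Its part in the rise was not tested.

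Most lncRNA regions were seen in few libraries. A peak was found in 1 library only for 3423 regions (29.7%), in 9 or more libraries for 2754 (23.9%) and in all 18 for 490 (4.26%). The share found in all 18 was 6.85% for intergenic regions and 3.55% for protein-coding regions. Regions of lncRNA genes had a peak in a mean of 5.44 libraries, intergenic regions in 5.87 and protein-coding regions in 5.32. By group, 3665 regions (31.8%) were found in libraries of 1 group only and 2470 (21.5%) in at least 1 library of all 6 groups. The regions present in 3 of 3 libraries were fewest at 6 h (1223). Their number was 1281 in the 10 min group, 1349 at 1 h and 1506 at 24 h, against 1541 in sham, and the 72 h group had the most, 1697. This order is also that of the mean list length except at the 10 min and 1 h times, so the counts move with the number of peaks called, and how much of the difference between groups comes from that was not tested.

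**Figure D2:**
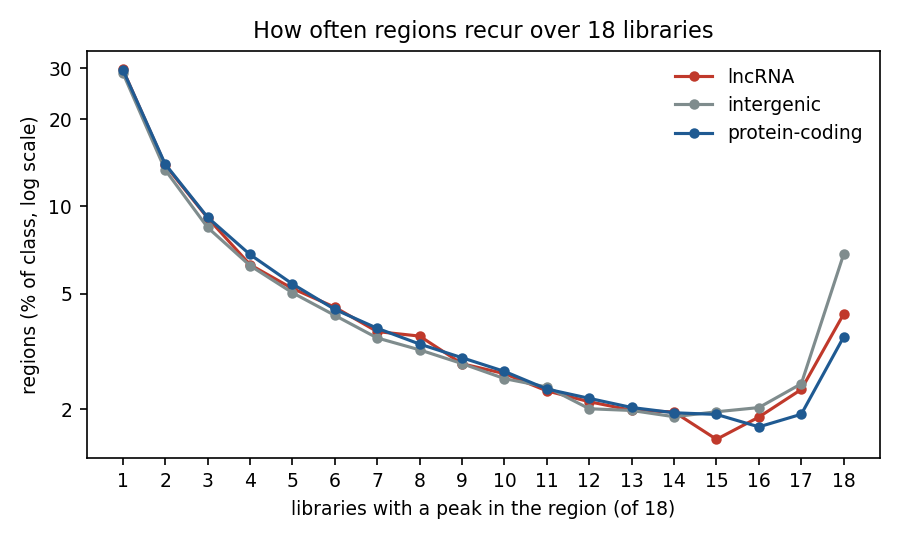
Percentage of regions (log scale) against the number of libraries, of 18, that had a peak in the region, for lncRNA (red), intergenic (grey) and protein-coding (blue) regions. The lines nearly coincide for low numbers and separate at 18 libraries, at 4.26%, 6.85% and 3.55%.

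Within a library, lncRNA regions were less often occupied than intergenic regions. The difference in the percentage of regions with a peak was -2.40 ± 0.663 percentage points (SD, n = 18), negative in 18 of 18 libraries (two-sided sign-flip permutation test, p = 1e-05, the smallest it can give, 1.33e-05 after Benjamini-Hochberg adjustment over 4 such comparisons). Against protein-coding regions the difference was 0.662 ± 1.13 points, positive in 15 of 18 libraries (permutation p = 0.0243, adjusted 0.0243). The 3 libraries with a negative value were those of 72 h, at -2.90, -0.425 and -0.953 points. The sham libraries were at 0.576, 0.413 and 0.573 points, and those of 10 min, the group with the highest mean, at 1.51, 1.75 and 1.38. The sign was thus opposite at 72 h, and whether 72 h differs was not tested on this measure. The mean difference from intergenic regions was -2.32 points at 72 h and -2.34 in sham. With a region counted only where peaks covered at least 50% of it, the difference from protein-coding regions no longer passed (0.591 points, permutation p = 0.0523). The regions were defined by peaks of these same 18 lists. With any overlap counted, the mean differences therefore restate the mean numbers of libraries per region given above. The sign-flip p-values measure only how steady the differences were over these libraries, and do not test the classes beyond them.

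**Figure D3:**
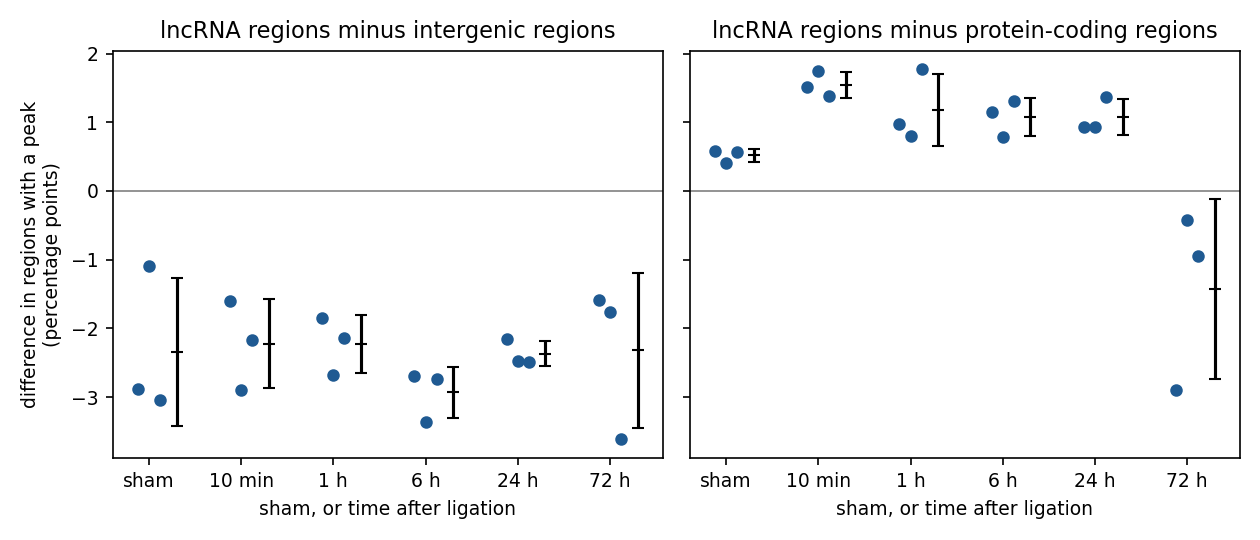
Difference in the percentage of regions with a peak between lncRNA regions and intergenic (left) or protein-coding regions (right), in percentage points, by group. Points are libraries, 3 a group, with the group mean and SD beside them; all 18 lie below 0 on the left, and on the right only the 72 h libraries do.

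The peaks in lncRNA regions were also weaker than those between genes. The score in the lists, the authors' own value for each peak, had a median that was lower in lncRNA than in intergenic regions by -3.72 ± 0.664 (SD, n = 18), negative in 18 of 18 libraries, and higher than in protein-coding regions by 1.07 ± 0.531, positive in 17 of 18 (sign-flip permutation p = 1e-05 and adjusted p = 1.33e-05 for both, as above). All lists start at a score of 50, so these are small steps above that limit. The median of the regions' mean scores was 119 for lncRNA regions found in all 18 libraries and 58.3 for those found in 1.

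The share of a library's autosomal peaks that fell in lncRNA regions differed between the 6 groups by less than 1 percentage point. It was 7.49%, 7.62% and 7.43% in sham and 7.70%, 7.60% and 7.62% at 10 min. The 1 h libraries had 7.60%, 7.47% and 7.71%, and those of 6 h 7.55%, 7.46% and 7.52%. The 24 h libraries had 7.58%, 7.59% and 7.61%, and those of 72 h 7.26%, 7.49% and 7.22%. The libraries of 24 h lay closest together, while 2 of the 3 libraries of 72 h lay below every other library. The share of variance between groups was 0.646 (permutation test over libraries, 100000 relabelings, p = 0.0208, 0.0416 adjusted over 2 measures). No time point passed against sham: the difference was -0.189 points at 72 h (exact permutation p = 0.3, adjusted 0.625 over 5 times) and 0.128 points at 10 min (exact p = 0.2), where 3 against 3 libraries cannot give a p below 0.1. The mean of the 15 MI libraries differed from that of sham by 0.0184 points (exact permutation p = 0.843).

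That group difference was not stable. It came to 0.549 (permutation p = 0.0652) without 72 h replicate 1 and to 0.545 (p = 0.0734) without 72 h replicate 3. With only peaks that score at least 100 it was 0.311 (permutation p = 0.423), and the 72 h mean was then above that of sham, 6.93% against 6.76%. The shares of the other classes moved too: protein-coding regions took 50.8%, 49.2% and 48.4% of the peaks at 72 h and 47.7%, 49.0% and 47.3% in sham.

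**Figure D4:**
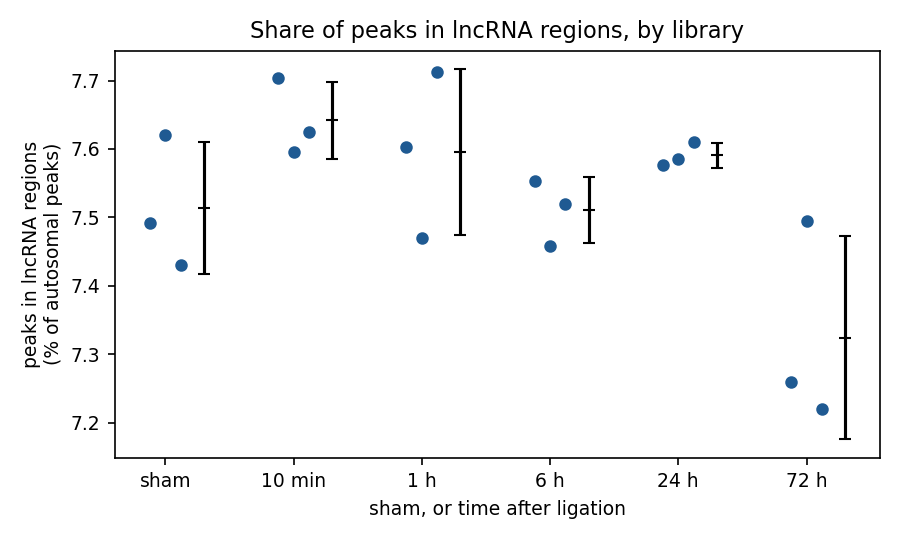
Percentage of autosomal peaks that lie in lncRNA regions, by group, with points for the 3 libraries of each group and the mean and SD beside them. The axis does not start at 0; 2 libraries of 72 h, at 7.26% and 7.22%, lie below the others.

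The share of lncRNA gene sequence under peaks gave no group difference that passed. It ran from 1.57% to 2.40% over the 18 libraries, with 2.05% ± 0.310 in sham (SD, n = 3), 1.76% ± 0.122 at 1 h and 2.08% ± 0.227 at 72 h. The share of variance between groups was 0.248 (permutation p = 0.574), and MI differed from sham by -0.153 points (exact permutation p = 0.322). Pairs of libraries of 1 group shared slightly more lncRNA regions than other pairs: the Jaccard index, regions with a peak in both divided by those in either, was 0.386 ± 0.0203 (SD, 18 pairs) within and 0.381 ± 0.0206 (135 pairs) between groups (one-sided permutation p = 0.0605). The highest index of any pair, 0.440, joined sham replicate 2 and 72 h replicate 2, which have the longest lists of their groups.

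Among 12408 autosomal lncRNA genes, 9686 had sequence outside protein-coding spans and 5446 of these (56.2%) held at least 1 region. A single region was the rule, in 2816 genes (51.7% of those hit), and 94 genes held 10 or more. The genes hit had a median span of 14276 bases and the others of 4911. The gene with the most was A930011G23Rik on chromosome 5, next to Rasgef1b, with 53 regions over 431817 bases, or 123 per Mb. Its regions with a peak numbered 15, 19 and 17 in the sham libraries, 12, 7 and 17 in those of 10 min and 14, 11 and 15 in those of 1 h. The 6 h libraries had 15, 11 and 9 of them, those of 24 h had 11, 14 and 12, and those of 72 h had 15, 20 and 16, so the groups overlapped. In this gene 1 region (chr5:99509727-99512161) had a peak in all 18 libraries and 13 in 1 library.

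The other genes of the 10 with most regions were 2610307P16Rik with 28, Gm1604a and Gm30382 with 26, 4930500H12Rik with 23, and A330033J07Rik, D030068K23Rik, D130009I18Rik, Gm33655 and Gm38475 with 21. Peaks covered 3.34% ± 0.785 of A930011G23Rik (SD, n = 18) and between 1.05% (Gm33655) and 4.69% (Gm38475) of the other 9. In 4930500H12Rik the covered share was 2.10% on average in sham and 0.871% at 72 h, with 0.140%, 1.30% and 1.17% in the 3 libraries of 72 h and 1.49%, 2.28% and 2.54% in sham. These do not overlap, but the gene is 1 of 10 looked at, and 3 against 3 libraries cannot give a permutation p below 0.1. How many other genes separate in the same way was not counted. This gene was not called by the test over all genes given below.

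Short genes held the highest covered shares. Here and above, a covered share is taken of the gene's sequence outside protein-coding spans, while the limit of 5000 bases applied to the whole span. Among genes of at least 5000 bases, Gm43305 on chromosome 14 was covered for 85.9% ± 24.3 of its span by peaks in 17 of 18 libraries, and the library that lacked a peak was 1 h replicate 2. Gm42031 was covered for 50.5% ± 44.0, with peaks in 12 libraries, from 1 of 3 in sham and at 24 h to 3 of 3 at 6 h and 72 h. A530040E14Rik followed at 39.9% ± 11.8, Gm24463 at 39.6% ± 7.23 and Gm51627 at 35.3% ± 7.15, all 3 with a peak in 18 of 18 libraries. The rest of the 10, 4930451E10Rik, Gm51645, Gm42263, Gm40692 and Gm40616, lay between 30.7% and 33.8%. For some of the 10 the sequence measured was much shorter than the span. It was 3741 of 7946 bases in A530040E14Rik, 1836 of 11278 in Gm40692 and 3034 of 7815 in Gm40616.

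The regions found in all 18 libraries belonged to 465 genes. Gm31340, 0.218 kb from Slc1a3 on chromosome 15, had 4 of them, and Snhg14, 1700019L22Rik and Gm36684 had 3 each. Snhg14 is the long imprinted transcript that hosts small nucleolar RNAs and runs antisense to Ube3a. Its 3 such regions were chr7:59383886-59385542, chr7:59690253-59693759 and chr7:59767828-59769510, with mean scores of 104, 144 and 250. The other 6 of the 10 genes, Gm15270, Gm46414, Gm26843, Gm20619, Gm29536 and Gm16630, had 2 each.

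By score, the region at Gm40237 (chr4:118546347-118549303), whose promoter is printed above, stood first. It had 3100 in 17 of 18 libraries and 3173 in 10 min replicate 2. The same value in so many libraries looks like a ceiling of the score near 3100. The score therefore cannot show whether the groups differ there. Gm33838 (chr9:35304550-35306414) ran from 2074 to 3115, and it stood at 3100 in 5 libraries, among them all 3 of 24 h. AY036118 (chr17:39842693-39849166) ran from 154 at 24 h replicate 1 to 1262 in sham replicate 2, with a median of 583. The next, Gm41530, had a mean of 498 and Gm6410 of 350, and 9330175M20Rik, 9230112J17Rik, A530040E14Rik, Gm37323 and Gm39035 lay between 256 and 302. Of all lncRNA regions, 2 had a mean score above 1000, those of Gm40237 and Gm33838.

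Of 26 lncRNAs described in heart or widely studied, 22 were in the table with sequence outside protein-coding spans, and 11 of them (50.0%) held a region, close to the 56.2% of all lncRNA genes. None of the 22 had a region in all 18 libraries, and of the 9686 lncRNA genes with such sequence only 465 did. No region was found in Malat1, H19, Mhrt, Chaer1, Bvht, Hand2os1, Tug1, Gas5, Hotair, Norad or Oip5os1. In Mhrt and Gas5 the rule could see only part of the gene, 1897 of 5563 and 2715 of 3939 bases. Pvt1, the transcript beside Myc, held 21 regions and Lncpint, induced by p53, held 16, and both had a peak in 18 of 18 libraries. Peaks covered 2.47% ± 0.916 of Pvt1 (SD, n = 18) and 2.88% ± 0.927 of Lncpint.

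The heart-described genes with fewer regions were less regular. Miat had 1 region (chr5:112216479-112217737), with a peak in 72 h replicates 1 and 2 at scores of 76.7 and 68.7 and in no other library. These 2 lists were among the longest, with 58992 and 60653 peaks, and the scores lie near the lower limit of 50. Of all lncRNA regions 31.8% were found in libraries of 1 group only. Whether the Miat peaks follow the list length was not tested. Carmn, which lies at a heart enhancer, had 1 region with a peak in 5 libraries, none of them sham or 10 min. Fendrr, needed for heart and body wall development, had peaks in 11 libraries and Trp53cor1, a p53 target, in 10, from 0 of 3 at 10 min to 3 of 3 at 24 h. Mirt1, named for myocardial infarction, had peaks in 8 libraries, 2 of 3 in both of the latest groups and 1 of 3 in each of the other 4. Rmst had them in 14, Sox2ot in 12 and Neat1, the scaffold of paraspeckles, in 3. None of these genes was called over the groups by the test over all genes, which Miat, with peaks in 2 libraries, did not enter.

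Imprinted lncRNA genes held a region in 5 of 6 cases, H19 being the exception, against 56.2% of all lncRNA genes. They are long, with a median span of 44253 bases against 8963.5 for all lncRNA genes, and length was not held equal. Snhg14 held 20 regions and Airn, the transcript that silences Igf2r, held 5, both with a peak in 18 of 18 libraries. In the cluster of Gm34081, Meg3 held 5 regions with peaks in 16 libraries. Of its sequence outside protein-coding spans 9.03% ± 5.86 was covered (SD, n = 18). Rian held 5 regions with peaks in 15 libraries, 1 of 3 at 72 h and 3 of 3 in sham, and Mirg 2 regions with peaks in 5. No Meg3 region had a peak in more than 9 libraries.

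The immune-described genes, with a median span of 15454 bases, held a region in 6 of 8 cases, and Mir155hg and Mir22hg held none. Ptgs2os, beside the cyclooxygenase gene Ptgs2, had its 1 region (chr1:150081464-150083156) in all 18 libraries, with scores from 59.6 to 241 and groups that overlapped. Ifngas1, beside the interferon gamma gene, had 6 regions and 6.73% ± 1.83 of its span covered (SD, n = 18). Morrbid, which controls the survival of short-lived myeloid cells through Bcl2l11, had 15, of which 1 (chr2:128322269-128323891) was found in all 18 libraries. Dleu2 had a peak in 18 of 18 libraries, Mir17hg in 4 and Ptgs2os2 in 3.

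Genes that host snoRNAs were short and seldom hit, while those that host microRNAs were not. A region was found in 4 of 16 snoRNA host genes (25.0%), which have a median span of 2955 bases, and in 7 of 13 microRNA host genes (53.8%), which have a median span of 15486 bases. Genes named as opposite-strand transcripts were hit in 53 of 127 cases (41.7%), predicted Gm genes in 56.8% and Riken clones in 56.2%. Their median spans were 9818, 8786 and 10435 bases.

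**Figure D5:**
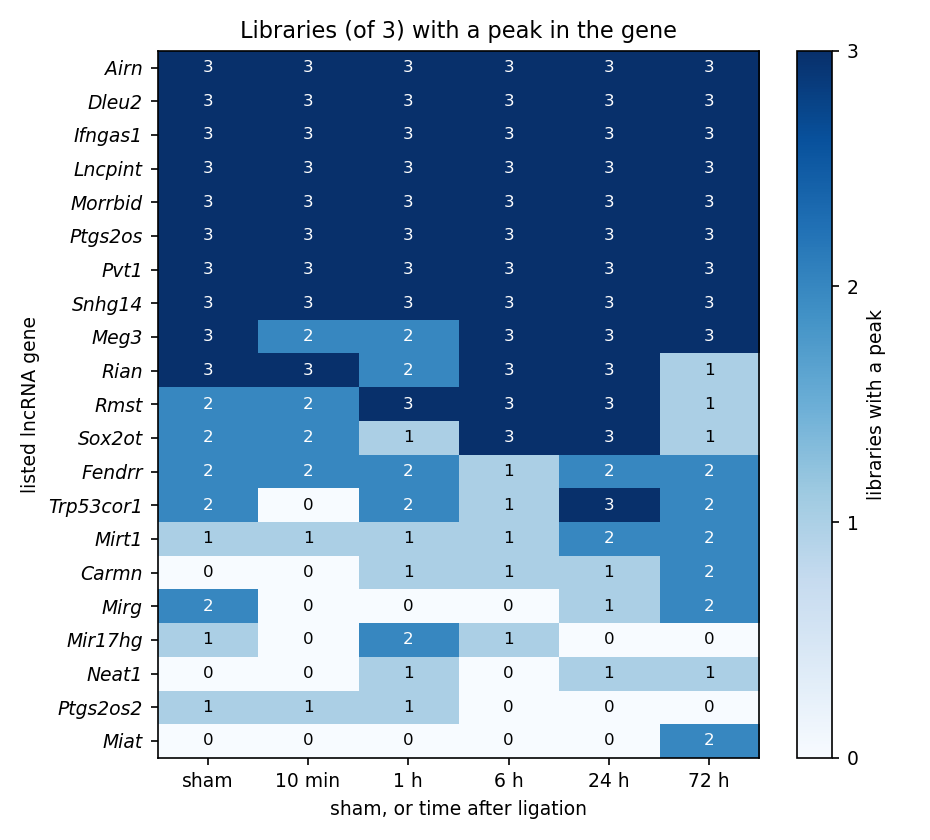
Number of libraries, of 3 in each group, with a peak in the part of each listed lncRNA gene outside protein-coding spans, for the heart-described, imprinted and immune-described genes that held a region. Genes are ordered by total. The upper 8 had a peak in every library, and Miat had peaks in 2 libraries of 72 h only, both with long lists.

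Each time point was next compared with sham region by region. A gained region had a peak in all 3 libraries of the time and in 0 of 3 sham libraries, and a lost region the reverse. At 10 min 27 lncRNA regions were gained (0.235%) and 61 lost (0.530%), while 0.218% and 0.627% of all autosomal regions were. At 1 h 32 (0.278%, all regions 0.223%) were gained and 59 (0.513%, all regions 0.55%) lost. At 6 h 21 (0.182%, all regions 0.203%) were gained and 96 (0.834%, all regions 0.707%) lost. At 24 h 49 (0.426%, all regions 0.394%) were gained and 66 (0.574%, all regions 0.524%) lost. At 72 h 82 (0.713%, all regions 0.724%) were gained and 54 (0.469%, all regions 0.401%) lost. The shares lay near the background at all 5 times, and the time points share the same 3 sham libraries. More were lost than gained up to 24 h, when the lists were on average shorter than in sham, and more gained at 72 h, when they were longer. With lists of equal length this direction turned at all 5 times. The counts gained and lost were then 48 and 39 in the 10 min group, 35 and 32 in that of 1 h, 45 and 42 in that of 6 h, 44 and 35 in that of 24 h and 36 and 46 in that of 72 h. The gained shares at equal length were 0.417% in the 10 min group (all regions 0.288%) and 0.391% in the 6 h group (all regions 0.269%), further from the background than with the full lists.

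For MI as a whole, a gained region had to be present in 12 or more MI libraries and absent from sham, and a lost region present in all 3 sham libraries and in no more than 3 of MI. By this rule 7 lncRNA regions were gained (0.0608%, all regions 0.0378%) and 33 lost (0.287%, all regions 0.255%). With peaks that score at least 100 only, the counts were 1 gained (0.00869%, all regions 0.00608%) and 9 lost (0.0782%, all regions 0.0722%). None of the 20 entries named below, 5 for each direction of 72 h and of MI, met its rule at that score, 13 met it with lists of equal length and 16 with at least 50% of the region covered.

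The regions gained at 72 h with the highest scores were in Gm46606, Gm26564, Mir670hg, Gm42354 and LOC100125594. That in Gm26564 (chr10:34237838-34238775) had scores of 98.6, 154 and 58.9 in the 3 libraries of 72 h and 65.2 in 24 h replicate 1, and no peak in the other 14 libraries. The region of Mir670hg (chr2:94213695-94214468), which hosts a microRNA, had 72.1, 154 and 76.3 at 72 h, and it also had peaks in 3 of 3 libraries at 10 min and 6 h and in none at 24 h. The regions lost at 72 h were in Gm31560, Gm15411, Gm40016, Gm33302 and Gm46587. That in Gm31560 (chr17:34543438-34544427) had 128, 102 and 72.1 in sham and peaks in 6 of the 12 MI libraries before 72 h.

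For MI as a whole the gained regions with the highest scores were in Gm46606, 1700123O12Rik, Gm29883 with Gm29829, A230108P19Rik with Gm13383, and Gm38752, each with a peak in 12 or 13 MI libraries. The lost ones were in LOC108167564, Gm40016, Morrbid, Gm12153 and BB557941, each with a peak in 2 MI libraries. For the BB557941 region both were libraries of 72 h, at scores of 58.7 and 68.5. Peaks covered part of that gene in all 3 libraries of 72 h, as given below, so its loss does not hold at 72 h. In Morrbid the lost region (chr2:128307609-128308802) had scores of 69.9, 118 and 69.2 in sham, 86.8 in 1 h replicate 2, 72.9 in 6 h replicate 2 and no peak elsewhere. It lies in the same gene as the region found in all 18 libraries. In LOC108167564 (chr8:128743477-128744120) the sham scores were 81.9, 116 and 88.3, with peaks in 10 min replicate 1 and 72 h replicate 2 besides.

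The covered length of each gene was then tested over the 6 groups with limma on log2(covered bases + 500), in genes with a peak in at least 3 libraries. Of 18789 genes tested 32 passed an adjusted p of 0.05, which is 0.17%, and 5 of the 4191 lncRNA genes did. At an unadjusted p under 0.05, 253 lncRNA genes passed, or 6.04%, against 6.91% of all genes. Against sham, 2 lncRNA genes were called at 72 h (all genes 0.0905%) and 1 at 24 h (all genes 0.0373%). No lncRNA gene was called for the 3 earlier times (limma, 0 of 4191; all genes 0.016% each). At an unadjusted p under 0.05 the 10 min contrast had 203 lncRNA genes (4.84%, all genes 5.48%) and the 1 h contrast 212 (5.06%, all genes 5.41%). The 6 h contrast had 252 (6.01%, all genes 6.26%), that of 24 h 221 (5.27%, all genes 5.27%) and that of 72 h 237 (5.66%, all genes 6.17%). The median log2 difference of the lncRNA genes from sham ran from -0.05 at 1 h to 0 at 72 h, and that of all genes from -0.12 to 0.05.

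The 5 genes each turn on 1 or a few peaks that are present in whole groups and absent in others. For 3 of them the filter of 3 libraries was met only through the group where they are high, so their values are a description and no p is given. They are also the genes behind the counts called at 24 h and 72 h, which therefore support nothing. Gm39738 was covered for 860, 841 and 1418 bases in the 72 h libraries and 0 in the other 15 (log2 difference from sham 1.60 ± 0.22 SE). Gm32425 was covered for 984, 672 and 575 bases at 72 h, for 127 in sham replicate 3 and for 0 in the others (log2 difference 1.19 ± 0.21 SE). 1700001G01Rik had 588, 659 and 511 bases at 24 h and 0 elsewhere (log2 difference 1.12 ± 0.19 SE).

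The remaining 2 genes passed the filter through several groups. BB557941 had 698, 614 and 1097 bases in sham and 644, 739 and 645 at 72 h, and 0 in the 12 libraries between (limma adjusted p over groups 0.0198). Against sham its log2 difference was -1.36 ± 0.26 at each of the 4 earlier times, which did not pass (limma adjusted p from 0.0841 to 0.164). Gm36584 was covered in all libraries of sham (837, 978 and 966 bases), 10 min (1047, 1160 and 785), 1 h (798, 741 and 784) and 24 h (792, 2094 and 1977), and for 0 bases in all 6 of 6 h and 72 h (limma adjusted p over groups 0.0431).

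These calls were fragile. Refits that each dropped 1 library called between 0 and 4 lncRNA genes in place of 5, and these were not always among the 5. The refit lacking 72 h replicate 2 called 0. Those lacking 1 h replicate 2, 72 h replicate 1 or 72 h replicate 3 called 1 each. In the last of these the called gene was none of the 5. Refits lacking sham replicate 1 or 2, 1 h replicate 1 or 6 h replicate 3 called 2 each. Those lacking 10 min replicate 1 or 2, 6 h replicate 1 or 2 or 24 h replicate 2 called 3 each. The limma adjusted p of BB557941 ran from 0.0392 to 0.0789 over these fits and missed the threshold without 1 h replicate 2 (0.0506), 72 h replicate 2 (0.0789) or 72 h replicate 3 (0.0601). That of Gm36584 ran from 0.0311 to 0.142 and passed only without 24 h replicate 1. Of the other 3, 1700001G01Rik lost its call in every such fit that tested it and Gm32425 in all but the fit without sham replicate 3. Gm39738 kept its call in the 15 fits that tested it. The 3 fits that did not were those without a 72 h library, the only libraries where it was covered. Its kept calls therefore show no stability. With lists of equal length BB557941 (limma adjusted p = 0.860) and Gm36584 (0.899) did not pass and the other 3 no longer met the filter. In groups where all libraries are at 0 the spread is 0, so the test leans on the spread borrowed from other genes.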

How the data were processed

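MeDIP-seq peak lists of 18 libraries, 3 mice in each of 6 groups, were used. Per the submitters' processing notes the reads were handled with Bowtie2 and MACS2 on mm10; versions, options and any input library are not given in the sources used here. Peaks were called by the authors on each library, and each deposited list gives chromosome, start, end, a name and a score whose scale is not stated. Gene spans came from a RefSeq table and promoter windows from RefSeq, both of GRCm38.p6. Positions are counted from 1.

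Regions, presence and covered length were computed with Python 3.11.15, numpy 2.4.6 and pandas 2.3.3, and drawn with matplotlib 3.10.9. Values per library were tested by permutation over libraries, two-sided unless stated, and covered length per gene with limma 3.58.1 in R 4.3.3 with Benjamini-Hochberg adjustment over all 18789 genes. On simulated data, limma recovered 68.5% of 200 genes raised 4-fold at 72 h among 16371, with 1 false call. The raised genes were drawn only from genes with several simulated peaks a library on average. These values therefore do not carry over to genes with a single region. P-values measure the spread between these samples, with 3 a group. The promoter values and the counts of regions per gene carry no test.

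Named genes were the 10 with most regions, the 10 with the highest covered share among spans of at least 5000 bases, the 10 with most regions in all 18 libraries, the members of the listed groups, the genes called by limma, and the 5 gained and 5 lost regions of highest mean score for 72 h and for MI. The regions, lists and rules were chosen with earlier results of these data known. Of the listed symbols, Chast, Nespas and Mir142hg did not match the table, and H19 matched no promoter window, so Malat1 and Mhrt were printed as the examples without a region. The replicate numbers were checked for pairing: the correlation of deviations of same-numbered libraries ran from -0.0731 to 0.0817, above 0.1 in 0 of 15 pairs, so they were not treated as pairs. Alternatives were peaks scoring at least 100, equal list length (34255 peaks), other overlap rules, a pseudocount of 100 bases, no filter, the replicate block and leaving out each library.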

Additional observations from a re-analysis of the deposited data

Results flagged for a closer look

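The share of peaks in lncRNA regions lay on opposite sides of the sham mean at different times. All 3 libraries of 10 min and all 3 of 24 h were above it and all 3 of 72 h below it, and the 72 h mean was lower than that of 10 min by -0.317 percentage points and than that of 24 h by -0.266. These differences between times were not tested. The side of the sham mean on which a group lies rests on the same 3 sham libraries.

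The percentage of lncRNA regions with a peak was below that of protein-coding regions in all 3 libraries of 72 h (mean difference -1.43 percentage points) and above it in all 15 libraries of the other 5 groups. The mean difference from intergenic regions was -2.32 points at 72 h and -2.34 in sham. Mean occupancy in sham and at 72 h was 32.4% and 34.3% for lncRNA regions and 34.7% and 36.6% for intergenic regions. For protein-coding regions it was 31.8% and 35.7%. The contrast between 72 h and the other groups was not tested.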

How the results depend on the processing

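The lncRNA regions were less often occupied and weaker than intergenic regions, and their peaks stronger than those in protein-coding regions, under every alternative run: between -2.48 and -2.33 points, -3.77 and -3.63 and 1.03 and 1.15 with 1 library left out. Occupancy against protein-coding regions lay between 0.597 and 0.872 points with 1 library left out and passed in each, and was 0.591 with at least 50% of the region covered, where it missed the threshold. The ratio of promoter windows stayed within its spread over libraries under both alternatives, which were chosen after seeing the data, as were those for scores and similarity and the score limit, the midpoint and equal lists where MI is compared with sham as a whole.

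The share of variance of the lncRNA share of peaks was 0.311 at a score of at least 100 and 0.529 (permutation p = 0.0731) by peak midpoint, and 0.545 to 0.793 with 1 library left out. The difference from sham changed sign at 1 h (-0.118) and 72 h (0.163) at a score of at least 100, at 6 h with equal lists (0.112), and for MI by midpoint (-0.00142). With 1 library left out it ran, from the earliest time to the latest, from 0.0860 to 0.181, 0.0223 to 0.143, -0.0453 to 0.0492, 0.0350 to 0.129 and -0.275 to -0.136, and from -0.0232 to 0.0714 for MI. For the sequence under peaks, equal lists changed the sign at 10 min (0.0913), 6 h (0.103), 72 h (-0.0877) and for MI (0.00867). With 1 library left out the share of variance was 0.194 to 0.373, and the difference from sham, in the same order, -0.293 to 0.0263, -0.386 to -0.104, -0.376 to -0.0422, -0.247 to 0.0354, -0.0967 to 0.212 and -0.257 to 0.0256. Neither difference from sham passed in these settings. Similarity within groups passed with equal lists (0.00627, permutation p = 0.00582), and ran from 0.00214 to 0.00823 with 1 library left out.

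At a score of at least 100 the regions gained and lost in that order were 4 and 19, 3 and 13, 2 and 13, 5 and 16, 14 and 6, and 1 and 9. With equal lists they were 48 and 39 for the 10 min group and 45 and 42 for the 6 h group. Equal lists also gave 35 and 32 for the 1 h group, 44 and 35 for that of 24 h, 36 and 46 for that of 72 h and 6 and 15 for MI, so the larger of both counts changed at all 5 times, though not for MI. Over the 5 times, 0.304% to 0.417% of lncRNA regions were then gained (all regions 0.256% to 0.338%) and 0.278% to 0.400% lost (all regions 0.264% to 0.332%). At a score of at least 100, 0.0174% to 0.122% were gained (all regions 0.0209% to 0.131%) and 0.0521% to 0.165% lost (all regions 0.0614% to 0.176%). With at least 50% covered, 32 were gained at 6 h (0.278%, all regions 0.285%). Leaving out 1 library asks for fewer libraries and gave gained counts of 58 to 135, 48 to 97, 48 to 100, 88 to 144 and 117 to 279 in order of time and 7 to 32 for MI, and lost counts of 102 to 217, 116 to 213, 139 to 318, 111 to 221, 90 to 188 and 36 to 163.

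The lncRNA genes called by limma over groups numbered 8 with no filter (37 of all 33073 genes), 2 with equal lists (14 of all 16136, and neither was among the 5 called with the full lists) and 0 to 4 with 1 library left out (0 to 28 of all genes). With no filter 2, 1, 2, 4 and 4 were called in order of time (7, 7, 10, 14 and 19 of all genes). Equal lists gave 2 at 10 min (6 of all) and 0 at 24 h and 72 h (0 and 5 of all), and a pseudocount of 100 bases 2 at 24 h and 1 at 72 h (10 and 15 of all). With 1 library left out the counts were 0 to 1, 0 to 1, 0 to 2, 0 to 2 and 0 to 3. With the replicate number as a block, 1 gene was called over groups, 0 at 24 h and 1 at 72 h (12, 0 and 12 of all genes). The permutation p of the lncRNA share of peaks within blocks was 0.0449 (share of variance 0.648). The numbers are not stated to mark a shared animal, litter or day, and 9 of 18 libraries correlated best with their own number. Whether same-numbered libraries share a batch was not tested. Unknown depth and the common lower limit of the scores bound all of these values.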

Other observations

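lncRNA genes wholly inside protein-coding spans fell outside the regions described. Among the listed genes, Kcnq1ot1, Peg13, Mirt2 and Dnm3os were such genes, and 562 of the lncRNA regions touched more than 1 lncRNA gene. The listed promoter windows with many CG were without peaks in every library: Tug1 with 37 CG, Fendrr with 31, Dleu2 with 29, Miat with 25 and Hand2os1 with 23. The listed windows with a peak in some libraries were those of Kcnq1ot1 in 16, Airn and Mir17hg in 4 each, Ptgs2os2 in 3, and Chaer1 and Ifngas1 in 1 each. The density of regions in the listed groups was 87.5 per Mb for the heart-described, 88.0 per Mb for the immune-described and 44.1 per Mb for the imprinted genes, against 68.0 per Mb over all lncRNA genes, values that rest on 67, 26 and 37 regions.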
